A study of Rattus norvegicus with 4 samples.

Results

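Cultured smooth muscle cells of the rat aorta that had received the growth factor PDGF-DD were compared with cells that had received only its vehicle. The comparison used 2 of the 4 arrays of the study, chosen by their titles, and all 31099 probe sets on them. The cells came from Sprague-Dawley rats and were cultured for 3 days with serum and for a further 3 days without it. They then received PDGF-DD at 30 ng/mL, or BSA alone at 0.01%, and were harvested after 24 h. The remaining arrays held cells of the same kind that received IL-1b, an inflammatory cytokine, at 2.5 ng/mL, or its vehicle, 0.1% BSA with 10 mM acetic acid. Each group was 1 array. There is therefore no replicate check, and every difference is described by its size, with no test. The labels do not say how many animals or cultures the RNA came from, nor whether the arrays were prepared together, so PDGF-DD cannot be told apart from any difference between the cultures or the arrays.

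PDGF-DD is a dimer of D chains that is secreted in latent form, is activated by cleavage and signals mainly through PDGF receptor beta, a receptor tyrosine kinase of smooth muscle cells and pericytes. The receptor feeds the MAP kinase and PI3 kinase pathways. MAP kinase switches on immediate early transcription factors and, with some delay, the phosphatases and Sprouty proteins that damp the pathway. Arterial smooth muscle cells can move from a quiescent, contractile state to a dividing, matrix-remodelling one, a change called phenotypic switching. Contractile genes are driven by serum response factor (SRF) bound to CArG boxes together with its coactivators myocardin and MRTF, and KLF4 represses them.

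Values are probe set intensities brought to a common scale, 1 probe set per gene, and a gene counted as measured where it lay above a floor of 28.1 on at least 1 of the arrays compared. Intensities are compared between arrays for 1 gene and not between genes. Of 14217 genes on the array, 10141 were measured in the PDGF-DD pair. All 9 spike-in control probe sets, which detect added bacterial and phage RNA, were 1.26-fold to 1.45-fold lower on the PDGF-DD array than on its vehicle array, and the 3′ to 5′ ratio of the actin control was 1.37 against 1.26. On the IL-1b and IL-1b vehicle arrays that ratio was 2.05 and 1.58. A bioC spike-in probe set read 187 with PDGF-DD and 264 with its vehicle. It read 585 with IL-1b and 654 with the IL-1b vehicle. The bioB, bioD and cre probe sets did not set the pairs apart in this way. The part of these differences in the results was not tested. The cells carried the transcripts of smooth muscle: Acta2, Tagln, Cnn1 and Smtn were above the floor on all 4 arrays, and Des (desmin) was at the floor on both arrays of the PDGF-DD pair. Of 12 endothelial markers 9 were at the floor on both arrays, as were 14 of 15 leukocyte markers and 18 of 19 genes of other organs. The summed intensity of the endothelial markers was 210 with PDGF-DD and 304 with vehicle, and that of the leukocyte markers was 1247 and 1333; Pecam1, Vwf and Ptprc were among those at the floor. The 10 fibroblast and adventitial markers summed to 8430 with PDGF-DD and 10605 with vehicle, with 5 and 3 at the floor, and the 8 neural markers to 190 and 105, with 6 and 7 at the floor and Sox10 at the floor on both. Whether such cells had a part in the differences was not tested.

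With PDGF-DD, 430 genes were at least 2-fold higher than with vehicle (4.24% of measured genes) and 474 were at least 2-fold lower (4.67%), together 8.91%. The larger differences lay more often below than above: past 4-fold lay 105 genes below vehicle and 38 above it, and past 8-fold 21 below and 2 above. The median log2 ratio of all measured genes was 0.011. Of 233 genes past 2-fold with a second measured probe set, 221 had every probe set on the same side, 12 had one of the other sign, and 0 had one at least 2-fold the other way. For a gene under the floor on either array only a bound can be given, marked by the words at least. Between the vehicle arrays, neither of which had received a factor, 10.5% of 10388 measured genes differed by at least 2-fold (on the PDGF-DD vehicle array 5.8% were higher and 4.67% lower), a larger share than between PDGF-DD and its own vehicle. Against the IL-1b vehicle array, PDGF-DD differed by at least 2-fold in 20.0% of genes, 9.65% higher and 10.3% lower. For this reason values against the IL-1b vehicle are given beside many of the main ones, but not all. A gene given against its own vehicle only can still differ between the vehicle arrays. Examples at least 2-fold apart were Id1, Scd, Col15a1, Cd44, Il1rl1, Ttk, Uhrf1 and Ccne2, with the PDGF-DD vehicle higher. With the PDGF-DD vehicle lower, examples were Rgs5, Npr3, Adamts9, Fgfr2 and Fmod. These are not all such genes. Both sets of values share the PDGF-DD array and are not independent of each other.

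**Figure D1:**
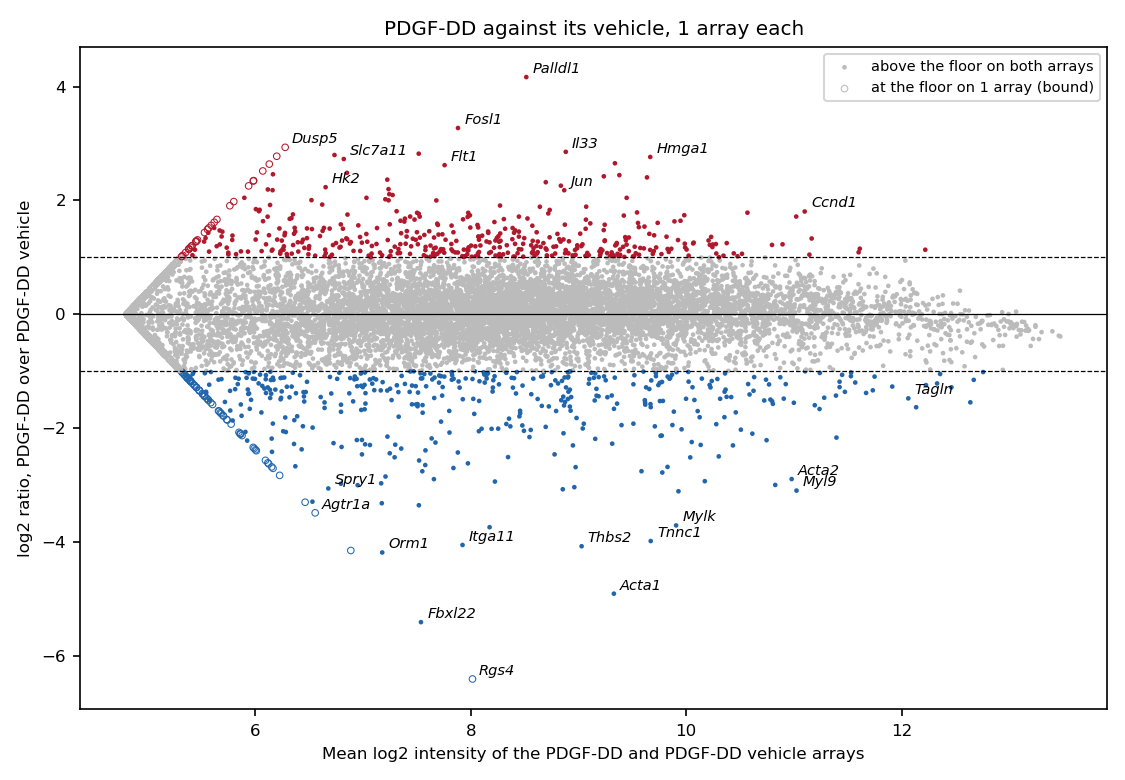
Each point is a gene measured on the PDGF-DD or the PDGF-DD vehicle array; the horizontal axis is its mean log2 intensity on both arrays and the vertical axis the log2 ratio of PDGF-DD over vehicle. Genes at least 2-fold higher (430) are red and those at least 2-fold lower (474) blue, open circles are genes at the floor on 1 array, and the lower tail, led by Rgs4 and Fbxl22, reaches further from 0 than the upper one.

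Palldl1, a gene whose name marks it as palladin-like, had the highest ratio of all measured genes. Its intensity was 1552 with PDGF-DD, 86.3 with vehicle, 10.9 with the IL-1b vehicle and 18.3 with IL-1b. The PDGF-DD array alone was in the upper range, and the ratio to its vehicle was 18.0-fold. Palld, the actin-bundling protein palladin itself, lay the other way at 797 with PDGF-DD and 3697 with vehicle, 4.64-fold lower. Further genes at the top were Arhgap22, a GTPase-activating protein for Rac (7.07-fold higher), Reln, the secreted glycoprotein reelin (6.96-fold), Esm1, the secreted proteoglycan endocan (5.44-fold), Cyp3a9, a cytochrome P450 (5.37-fold), and Ripk2, a kinase of NOD receptor signalling (5.30-fold). Another probe set of Reln gave a log2 ratio of 1.41 where the one standing for the gene gave 2.80. Esm1 and Cyp3a9 also differed between the vehicle arrays, with intensities of 285 and 260 on the PDGF-DD vehicle array and under the floor on the IL-1b vehicle array. Hs3st1, an enzyme that modifies heparan sulfate, was at 192 with PDGF-DD and below the floor on the other 3 arrays, at least 6.85-fold higher.

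Contractile genes were lower with PDGF-DD. Of 24 measured genes of the contractile apparatus, 13 passed 2-fold below vehicle and 0 above it, where 4.67% of all measured genes were that much lower, and 23 of the 24 log2 ratios were below 0 (22 of 25 after quantile normalization). The list median was -1.20 against the own vehicle and -1.49 against the IL-1b vehicle. In bulk RNA, fewer cells of a type and less RNA per cell cannot be told apart. Acta2, smooth muscle alpha-actin, had an intensity of 739 with PDGF-DD, 5504 with its vehicle, 9980 with the IL-1b vehicle and 2798 with IL-1b. PDGF-DD gave the lowest of the 4 values, 7.44-fold under its own vehicle.

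Myl9, the regulatory myosin light chain, was at 711 with PDGF-DD and 6093 with vehicle, 8.57-fold lower. Its kinase Mylk was at 265 and 3472, and another Mylk probe set gave a log2 ratio of -2.84 beside the -3.71 of the one standing for the gene. Calponin, Cnn1, was at 642 with PDGF-DD, 5134 with its vehicle, 5228 with the IL-1b vehicle and 982 with IL-1b, so that the vehicle arrays nearly coincided and both factor arrays lay below them. Lmod1, an actin nucleator, was 6.77-fold lower and Irag1, a substrate of cGMP-dependent kinase, 6.44-fold lower. Actg2, the gamma-actin of smooth muscle, was at 499 with vehicle and under the floor with PDGF-DD, at least 17.8-fold lower. Smooth muscle myosin heavy chain, Myh11, a late marker of differentiation, is less certain: 1 probe set read 29.5, beside the floor, against 290, and another gave a log2 ratio of only -0.44. Tagln (2.79-fold lower) and Smtn (2.85-fold) were lower by less. Tpm4 and Myl12a, a tropomyosin and a light chain that non-muscle cells also use, differed by 1.14-fold and 1.22-fold.

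Genes named for striated muscle were lower as well: 4 of 11 passed 2-fold below vehicle and 0 above it. Acta1, skeletal alpha-actin, was at 117 with PDGF-DD, 3526 with its vehicle, 4782 with the IL-1b vehicle and 261 with IL-1b. Both factor arrays lay far below both vehicle arrays, and PDGF-DD was 30.1-fold below its own. Troponin C, Tnnc1, was 15.8-fold lower and the calcium store protein Casq2 6.28-fold lower. Fbxl22, an F-box protein of striated muscle, had an intensity of 28.5 with PDGF-DD, next to the floor, and 1212 with vehicle, 42.5-fold lower.

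Cytoskeleton and adhesion genes were lower unevenly. Of 27 actin and focal adhesion genes, 5 passed 2-fold below vehicle and 0 above it, with a median of -0.52. Lims2, an adaptor of integrin-linked kinase, was at 79.0 with PDGF-DD and 1058 with vehicle, 13.4-fold lower, while its relative Lims1 had a log2 ratio of 0.02. Among 12 integrin subunits only Itga11 and Itga8 passed 2-fold. Itga11, which pairs with beta-1 to bind collagen, was at 59.6 with PDGF-DD, 990 with its vehicle, 984 with the IL-1b vehicle and 121 with IL-1b. Itga8, the partner that recognises RGD ligands such as nephronectin, was 7.67-fold lower. Their common partner Itgb1 was at 6128 and 6326, and Itga5 and Itga3, of the fibronectin and laminin receptors, had log2 ratios of 0.40 and 0.76.

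Among the regulators of these genes, Klf4 had an intensity of 1283 with PDGF-DD, 444 with its vehicle, 27.6 with the IL-1b vehicle and 892 with IL-1b. It was 2.89-fold above its own vehicle, but that vehicle array itself lay far above the IL-1b vehicle array. Klf5 was 2.58-fold higher by 1 probe set, and its others gave log2 ratios of 0.81 and 0.16. Klf15, a factor linked to quiescence of these cells, was 4.54-fold lower. Mrtfa, the SRF coactivator that senses free actin, was 2.23-fold lower, the Notch ligand Jag1 2.73-fold lower, and Srf and Myocd had log2 ratios of -0.67 and -0.81, less than 2-fold. Over the 21 measured regulators 2 were higher and 3 lower.

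Genes that respond to MAP kinase were among those furthest above vehicle, with exceptions. Fosl1, which encodes the AP-1 factor FRA-1, was at 733 with PDGF-DD, 75.9 with its vehicle, under the floor with the IL-1b vehicle and at 155 with IL-1b. PDGF-DD gave the highest value, 9.67-fold above its vehicle. Jun was at 994 with PDGF-DD and 220 with vehicle, 4.53-fold higher, and its other probe sets gave log2 ratios of 1.63 and 1.27. Fos was 2.04-fold higher, or 0.51 on the log2 scale as the median of its probe sets and 0.88 against the IL-1b vehicle, while Junb and Fosl2 had log2 ratios of -0.25 and -0.42 and Maf, a related factor, was lower at -1.49. Of 10 AP-1 genes 3 were higher and 1 lower.

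Of 21 immediate early genes 5 passed 2-fold above vehicle and 0 below it, with a median of 0.36. Hmga1, a chromatin architectural protein, was at 2117 with PDGF-DD, 312 with its vehicle, 48.7 with the IL-1b vehicle and 929 with IL-1b. The ratio to its own vehicle was 6.79-fold, and the vehicle arrays lay apart by a log2 ratio of 2.68. Egr1, a zinc finger factor, was at 1418 with PDGF-DD, 344 with its vehicle, 696 with the IL-1b vehicle and 918 with IL-1b, so it was above both vehicles, 4.13-fold for its own. Id1 was 3.44-fold higher, Ier5 2.23-fold and Ier2 2.08-fold, and Myc 1.84-fold.

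The list of MAP kinase feedback genes lay on both sides of vehicle. It also holds genes that are not inhibitors of the pathway, such as Etv1, Etv4, Etv5 and Il11. Of 16 measured members, 9 were at least 2-fold higher and 2 lower, with a median of 1.22. The list also differed between the vehicle arrays, by a median of 0.78 with the PDGF-DD vehicle higher. There 5 of 12 measured members were at least 2-fold higher and 2 lower. Dusp6, a phosphatase that inactivates ERK, was at 1624 with PDGF-DD, 258 with its vehicle, 109 with the IL-1b vehicle and 657 with IL-1b, and its other probe sets gave log2 ratios of 3.31 and 2.48 beside 2.65. Dusp5, a nuclear phosphatase for ERK, was at 215 with PDGF-DD and under the floor on the other 3 arrays, at least 7.64-fold higher. Dusp1, a nuclear phosphatase with p38 and JNK among its substrates, lay the other way, at 757 with PDGF-DD and 3242 with vehicle, 4.28-fold lower, and its other probe set gave -2.36. Spry2, a Sprouty inhibitor of receptor tyrosine kinases, was 2.38-fold higher. Its relative Spry1 was at 35.5 with PDGF-DD, 296 with its vehicle, 930 with the IL-1b vehicle and 226 with IL-1b, which put PDGF-DD lowest and 8.35-fold under its vehicle. Spry4 was level, at 127 and 128, with the IL-1b vehicle under the floor. The ETS factors Etv5 and Etv4 were 2.95-fold and 2.84-fold higher, Etv1 at least 2.44-fold, and Il11, a cytokine of the gp130 family, was at 134 against a value under the floor, at least 4.77-fold higher.

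CArG boxes, the SRF sites, were searched for on both strands in the 250 bases before each gene start in RefSeq's promoter table. They stood in 4 of 15 immediate early promoters (26.7%), among them Egr1, and in 2 of 15 promoters of the feedback list. They also stood in 1.28% of the promoters of all measured genes and in 412 of 27457 promoters in the table. Of 19 contractile promoters 1 held one, that of Cnn2, which differed by a log2 ratio of -0.09. Variants of the box, and sites further upstream or past the gene start, were not searched for. A contractile gene without a match may therefore still hold a site. A match is a description of the letters only. The promoters of Dusp5 and Etv1 are shown because they are the members of the feedback list that hold the box, which is in capitals (Dusp5 has a pair side by side), in GRCr8 at chr1:262543664-262543733 (plus strand) and at chr6:61317179-61317238 (plus strand).
Dusp5: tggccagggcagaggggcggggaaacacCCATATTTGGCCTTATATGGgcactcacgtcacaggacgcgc
Etv1: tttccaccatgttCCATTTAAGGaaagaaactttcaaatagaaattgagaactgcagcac

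Genes of DNA replication and division were higher. All 42 measured S phase genes had a log2 ratio above 0, from 0.57 for Rpa2 to 2.05 for Orc1, and 26 of them were at least 2-fold higher, beside 4.24% of all measured genes. Their median was 1.06. Orc1, the largest subunit of the origin recognition complex, was at 266 with PDGF-DD, 64.4 with its vehicle and under the floor on both IL-1b arrays. Hells, a chromatin remodeller of replicating cells, was at 410 with PDGF-DD, 103 with its vehicle, 43.2 with the IL-1b vehicle and 70.2 with IL-1b. PDGF-DD gave the highest value for both genes. Uhrf1, which carries DNA methylation through replication, was 3.03-fold higher, Cdt1, a licensing factor, 2.78-fold and the helicase subunit Mcm5 2.57-fold. The sliding clamp Pcna, at 4507 and 2585, was 1.74-fold higher.

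Of 44 genes of G2 phase and mitosis 21 passed 2-fold above vehicle and 0 below it, with a median of 0.95, and Cenpa alone was below 0, at -0.19. Kif18a, a kinesin that aligns chromosomes, was at 340 with PDGF-DD, 65.9 with its vehicle, 18.4 with the IL-1b vehicle and 37.2 with IL-1b, 5.15-fold higher than its vehicle. Ttk, a spindle checkpoint kinase, was 2.98-fold higher, the phosphatase Cdc25b 2.88-fold and Birc5 (survivin) 2.69-fold. Mki67, a marker of cycling cells, was at 1799 with PDGF-DD, 858 with its vehicle, 83.6 with the IL-1b vehicle and 64.8 with IL-1b. Most of the distance in Mki67 therefore lay between the pairs of arrays and not within the PDGF-DD pair. For the G2 and mitosis list, too, the median between the vehicle arrays, 2.39 with the PDGF-DD vehicle higher, exceeded the 0.95 within the PDGF-DD pair. For the S phase list they were 1.02 between the vehicle arrays and 1.06 within the pair.

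In the G1 machinery, cyclin D1, Ccnd1, was at 4102 with PDGF-DD, 1173 with its vehicle, 201 with the IL-1b vehicle and 2117 with IL-1b, 3.50-fold above its vehicle, and its other probe sets gave log2 ratios of 2.21 and 2.25 beside 1.81. Cdc25a, which frees CDK2 from inhibition, was 2.83-fold higher, or 0.75 on the log2 scale as the median of its probe sets and 0.96 against the IL-1b vehicle, and Ccne1 was 2.04-fold higher. Ccne2 was 3.70-fold higher by 1 probe set and gave a log2 ratio of -0.05 by another. The inhibitor Cdkn2b was 2.86-fold higher, and Cdkn1b (p27) and Rb1, a pair of brakes on S phase entry, had log2 ratios of -0.91 and -0.99, just under 2-fold. Of the 19 measured G1 genes 5 were higher and 0 lower.

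The promoters of these lists differed in their letters. The E2F letters searched were TTTGGCGC, TTTCCCGC, TTTGGCGG and TTTCCCGG on both strands, and they stood in 13 of 38 S phase promoters (34.2%), 2 of 39 G2 and mitosis promoters, 5.02% of the promoters of all measured genes and 2.86% of all promoters in the table. The cell cycle homology region (CHR), TTTGAA or TTCGAA, stood in 21 of 39 G2 and mitosis promoters (53.8%), 6 of 38 S phase promoters (15.8%), 11.5% of those of all measured genes and 17.3% of all in the table. The letters are shown in capitals for replication genes (Hells, Cdc45, Mcm5) and the mitotic kinesin Kif18a with E2F, and for Birc5, Cdc25b and Cdca8 with CHR. They are examples of members past 2-fold, and other such members of both lists hold the letters too. Birc5 also holds E2F letters further upstream, outside the stretch shown. The stretches lie in GRCr8 at chr1:246114069-246114128, chr11:95690088-95690147, chr19:13488753-13488812 and chr3:116218947-116219006 for E2F and at chr10:103572086-103572145, chr3:138860103-138860162 and chr5:142483260-142483319 for CHR, the last on the minus strand.
Hells: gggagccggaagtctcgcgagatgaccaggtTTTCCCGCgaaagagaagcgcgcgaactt
Cdc45: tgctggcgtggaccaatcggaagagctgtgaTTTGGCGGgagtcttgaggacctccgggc
Mcm5: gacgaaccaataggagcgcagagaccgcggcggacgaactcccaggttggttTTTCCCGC
Kif18a: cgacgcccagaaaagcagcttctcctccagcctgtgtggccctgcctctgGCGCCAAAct
Birc5: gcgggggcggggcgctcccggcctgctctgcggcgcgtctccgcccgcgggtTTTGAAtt
Cdc25b: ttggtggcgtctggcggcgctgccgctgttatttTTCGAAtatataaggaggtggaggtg
Cdca8: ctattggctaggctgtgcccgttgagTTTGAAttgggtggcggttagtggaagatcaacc

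**Figure D2:**
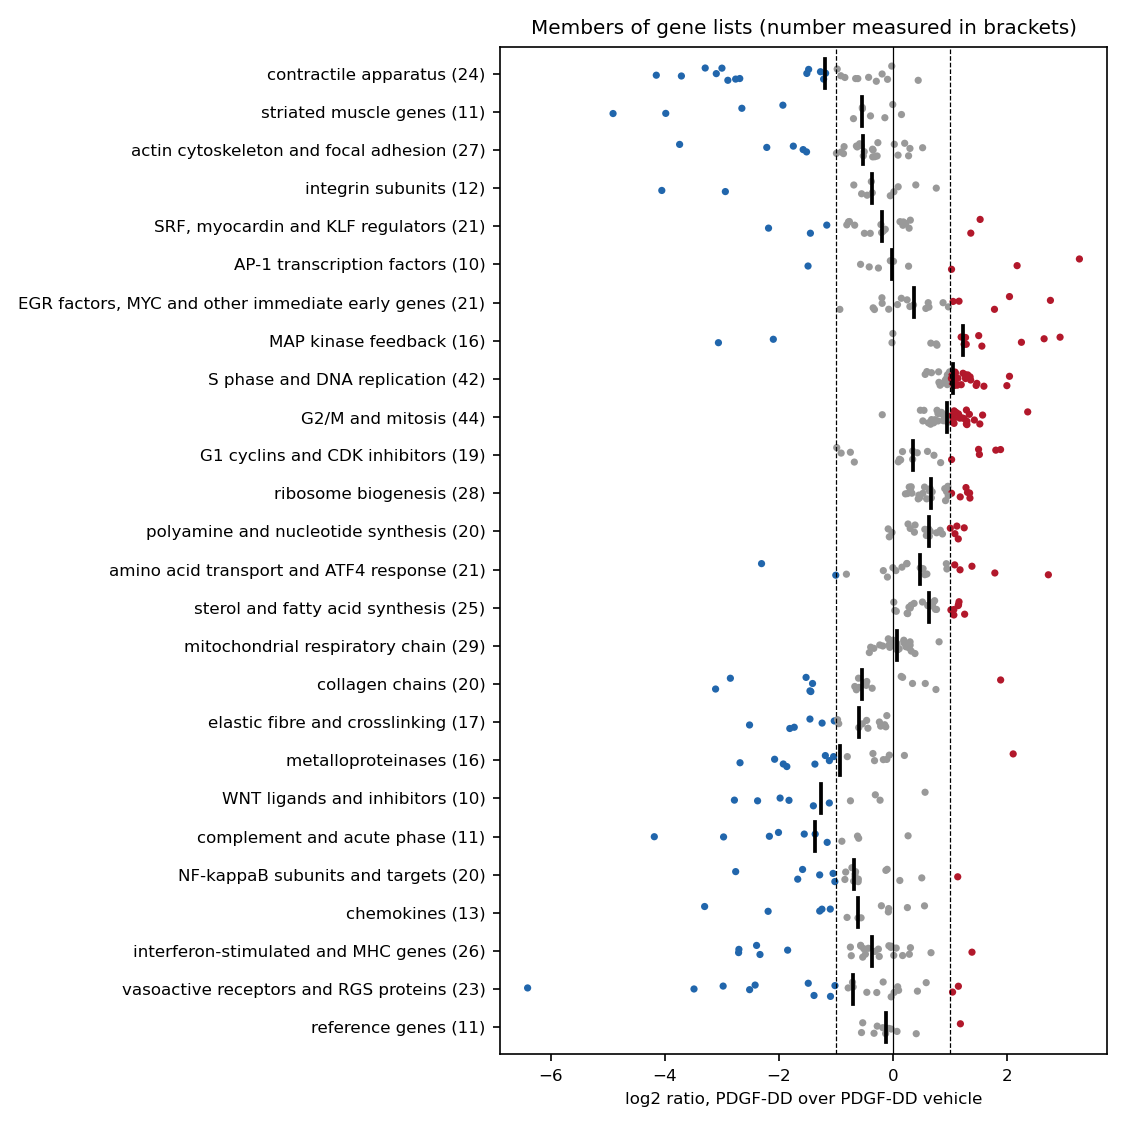
Log2 ratio of PDGF-DD over its vehicle for the measured members of 26 gene lists, 1 point per gene, with members at least 2-fold higher in red and at least 2-fold lower in blue; black bars are list medians. All 42 S phase genes and all 28 ribosome biogenesis genes lie right of 0, and all 17 elastic fibre genes lie left of it.

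Biosynthetic genes were higher by small and even amounts. All 28 genes of ribosome biogenesis were above 0, with a median of 0.66 and 6 at least 2-fold higher (11 with the values as deposited). Unlike the division genes they hardly differed between the vehicle arrays, where their median was -0.10, and their median against the IL-1b vehicle was 0.64. Rrs1, an assembly factor of the large subunit, was at 679 with PDGF-DD, 266 with its vehicle, 313 with the IL-1b vehicle and 381 with IL-1b. The highest value was again that of PDGF-DD. The box C/D protein Nop56 was at 1825 with PDGF-DD, 805 with its vehicle, 784 with the IL-1b vehicle and 781 with IL-1b. In polyamine and nucleotide synthesis 5 of 20 genes were higher and 0 lower, led by spermidine synthase Srm (2.38-fold) and Shmt2, a mitochondrial source of one-carbon units (2.21-fold).

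Amino acid supply genes went the same way in part, with 5 of 21 higher and 2 lower. Slc7a11, the cystine importer, was at 291 with PDGF-DD, 44.0 with its vehicle, 31.3 with the IL-1b vehicle and 322 with IL-1b, so that both factors lay above both vehicles. Psat1, of serine synthesis, was 3.46-fold higher, and the arginine and leucine transporters Slc7a1 and Slc7a5 2.62-fold and 2.26-fold. Slc7a1 gave a log2 ratio of 0.96 as the median of its probe sets, and Slc7a5 one of 0.74 against the IL-1b vehicle, both less than 2-fold. Vldlr, a lipoprotein receptor on the same list, was 4.94-fold lower, with log2 ratios from -2.32 to -1.89 for its other probe sets. Hexokinase Hk2, which commits glucose to the cell, was at 218 with PDGF-DD and 46.4 with vehicle, 4.70-fold higher, and Pfkp, a phosphofructokinase, 2.06-fold, but glycolysis genes had a median of 0.027, with 2 of 20 higher and 2 lower. Respiratory chain genes had a median of 0.069, with 0 of 29 past 2-fold in either direction. ER chaperones also had 0 of 16 past 2-fold.

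All 25 measured genes of sterol and fatty acid synthesis were above 0 (24 after quantile normalization), with a median of 0.63 and 7 at least 2-fold higher. Insig1, which holds the sterol sensor in the ER, was at 1662 with PDGF-DD, 694 with its vehicle, 262 with the IL-1b vehicle and 376 with IL-1b, 2.39-fold above its vehicle. The desaturase Scd was 2.24-fold higher, Msmo1, an oxidase of sterol demethylation, 2.22-fold and squalene epoxidase Sqle 2.10-fold. The list also differed between the vehicle arrays, by a median of 0.94 with the PDGF-DD vehicle higher.

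Matrix genes were mostly lower. All 17 measured genes of elastic fibres and crosslinking and all 19 of the matricellular proteins (18 of 19 after quantile normalization) were below 0, with medians of -0.60 and -0.55, 6 and 4 of them at least 2-fold lower. Against the IL-1b vehicle 4 of 17 and 4 of 19 were above 0, 1 and 2 of them at least 2-fold higher. The medians were then -0.54 and -0.44. Between the vehicle arrays 10 of 17 and 11 of 19 were higher with the PDGF-DD vehicle. Elastin, Eln, was at 439 with PDGF-DD, 2513 with its vehicle, 8140 with the IL-1b vehicle and 3121 with IL-1b. PDGF-DD gave the lowest value, 5.72-fold under its vehicle, and the vehicle arrays themselves lay apart. The microfibril protein Mfap4 was 3.50-fold lower and Fbln5, which organises elastic fibres, 2.37-fold. Of 20 collagen chains 6 were lower and 1 higher. Col14a1, a fibril-associated collagen, was at 331 with PDGF-DD, 2863 with its vehicle, 1980 with the IL-1b vehicle and 1894 with IL-1b, so that PDGF-DD alone was low. Col8a2 was 7.22-fold lower, and the basement membrane chains Col4a2 and Col4a1 were 2.88-fold and 2.66-fold lower. The main fibrillar chain Col1a1 was 1.51-fold lower and its companion Col3a1 1.29-fold. Col15a1, of the basement membrane zone, was the exception, at 1036 with PDGF-DD and 279 with vehicle, 3.71-fold higher, and its other probe set gave a log2 ratio of 1.90.

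The proteoglycans were split. Fibromodulin, Fmod, which binds collagen fibrils, was 7.64-fold lower, and its relatives Podn and Prelp were 5.51-fold and 4.92-fold lower. Versican, Vcan, was at 1789 against 894, at the 2-fold line, and the hyaluronan receptor Cd44 was 3.04-fold higher. Of 16 metalloproteinases 8 were lower and 1 higher, with a median of -0.92. They included Adamts9 (at least 6.42-fold lower), Adamts12 (3.79-fold) and Adamts5, an aggrecanase (2.58-fold). The exception was Mmp16, a membrane-type protease, at 315 with PDGF-DD, 73.0 with its vehicle, 179 with the IL-1b vehicle and 145 with IL-1b, and its ratio to the IL-1b vehicle was 0.82 on the log2 scale, less than 2-fold. Thbs2, an inhibitor of angiogenesis, was at 127 with PDGF-DD and 2146 with its vehicle, but at 87.7 with the IL-1b vehicle. The 16.9-fold difference from the own vehicle thus had no counterpart against the other one, where the log2 ratio was 0.54.

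Of 10 WNT pathway genes measured 6 were at least 2-fold lower and 0 higher, with medians of -1.26 and -1.22 against the own and the IL-1b vehicle. With a floor at the 30th percentile, which lets more of the dim genes count as measured, the first of these was -0.62. Frzb, a secreted WNT antagonist, was at 335 with PDGF-DD, 2302 with its vehicle, 2512 with the IL-1b vehicle and 4759 with IL-1b. Sfrp2, of the same family, was 3.54-fold lower, and the receptors Fzd1 and Fzd2 were 3.94-fold and 2.17-fold lower. PDGF-DD was the lowest array for Frzb, Sfrp2, Fzd1 and Fzd2. Nkd2, an intracellular WNT inhibitor, and the ligand Wnt4 also passed 2-fold below the own vehicle, Nkd2 at a log2 ratio of -2.37 and Wnt4 by at least 2.63-fold. Against the second vehicle Nkd2 gave -0.40, less than 2-fold, and Wnt4, under the floor with PDGF-DD, was at least 1.28-fold lower than with it. TGF-beta and BMP genes were lower in 4 of 28 and higher in 0, with a median of -0.47. The ligand Tgfb3 was 2.05-fold lower, and Inhba, the activin A subunit, had a log2 ratio of 0.94. Bmp6 was at 74.0 with PDGF-DD, 552 with its vehicle, 120 with the IL-1b vehicle and 2446 with IL-1b.

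None of the PDGF receptor genes differed by 2-fold from the own vehicle. Pdgfrb, the main receptor of the ligand, was at 558 with PDGF-DD, 1018 with its vehicle, 1503 with the IL-1b vehicle and 1318 with IL-1b, a log2 ratio of -0.87, and its other probe sets gave -0.53 and 0.09. Against the IL-1b vehicle the ratio was -1.43, past 2-fold. Pdgfra had a log2 ratio of -0.70 against its own vehicle and 0.74 against the IL-1b vehicle. Pdgfd, the ligand's own gene, was not above the floor on any array, and Pdgfa was at 569 and 493. Pdgfc, a further ligand gene, was at 64.45 with PDGF-DD and under the floor with its vehicle, at least 2.30-fold higher. The IL-1b vehicle array read 82.3 for Pdgfc, and the log2 ratio to it was -0.35. Of the 6 ligand and receptor genes measured, 1 was at least 2-fold above the own vehicle and 0 below it.

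Growth factor genes of other families were higher in 6 of 26 and lower in 2. Flt1, a VEGF receptor, was at 537 with PDGF-DD, 87.3 with its vehicle and under the floor on both IL-1b arrays, 6.15-fold higher, and its other probe sets gave log2 ratios of 1.47 and 2.05. Bdnf, a neurotrophin, was 2.86-fold higher by 1 probe set and 0.32 on the log2 scale by another. Kitlg, the KIT ligand, was 2.71-fold higher than with its own vehicle but 0.73 on the log2 scale against the IL-1b vehicle, less than 2-fold. Also higher were the EGF receptor ligands Hbegf and Ereg, by 2.68-fold and 2.20-fold. The IL-1b vehicle array read 379 for Hbegf, against 506 with PDGF-DD and 189 with its vehicle, a log2 ratio of 0.42 to that array. Angptl4, a lipoprotein lipase inhibitor, was 4.88-fold lower and the receptor Fgfr2 3.34-fold lower, or -0.96 on the log2 scale as the median of its probe sets.

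**Figure D3:**
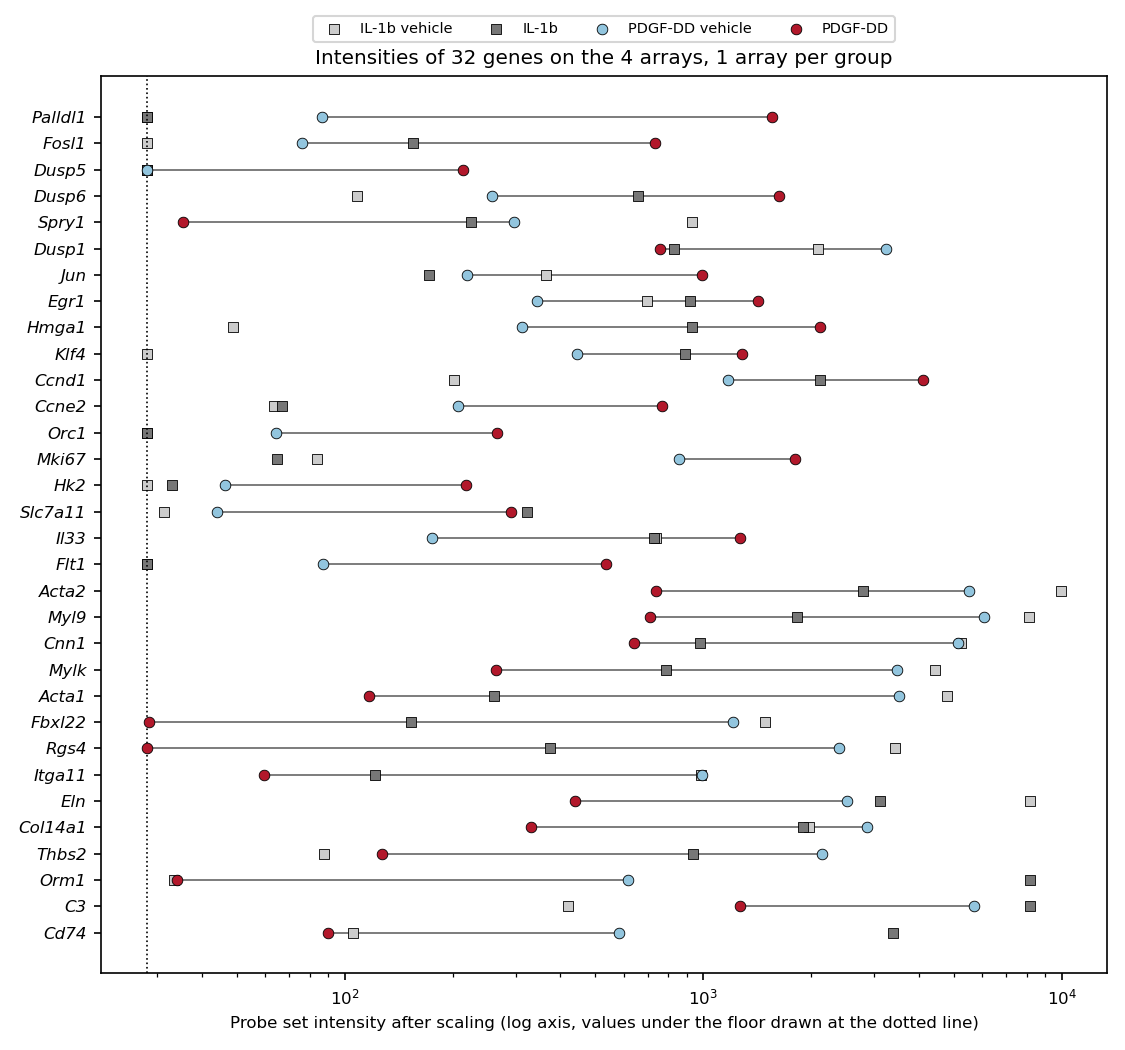
Scaled intensities of 32 genes on the 4 arrays, on a log axis; circles are the PDGF-DD pair, joined by a line, squares the IL-1b pair, and the dotted line is the floor of 28.1. Acta2, Myl9, Cnn1 and Acta1 are lowest with PDGF-DD, and for Thbs2, Orm1, C3 and Cd74 the PDGF-DD vehicle array lies well above the IL-1b vehicle array.

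Inflammatory genes were lower with PDGF-DD than with its own vehicle but in large part not than with the IL-1b vehicle. Of 11 measured complement and acute phase genes 7 lay at least 2-fold under vehicle and 0 above it, with a median of -1.36. Their median was 0.020 against the IL-1b vehicle and 2.27 between the vehicle arrays. Orm1, an acute phase protein, was at 34.0 with PDGF-DD, 618 with its vehicle, 33.5 with the IL-1b vehicle and 8189 with IL-1b. Complement C3 was at 1270, 5704, 419 and 8186 on the same arrays, 4.49-fold below its own vehicle and 3.03-fold above the IL-1b vehicle. It was the only gene at least 4-fold from the own vehicle and at least 2-fold the other way from the IL-1b vehicle. Against the IL-1b vehicle 6 of the 11 genes were above 0 and 5 below it. Hp, the haemoglobin scavenger haptoglobin, and Lbp, which binds bacterial lipopolysaccharide, had log2 ratios of -2.97 and -2.01 against the own vehicle and of -0.42 and -0.37 against the IL-1b vehicle, on the same side but less than 2-fold.

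Among NF-kappaB subunits and targets 6 of 20 were lower and 1 higher, with a median of -0.68 that was 0.50 against the IL-1b vehicle. The adhesion molecule Vcam1 was at 295 with PDGF-DD, 1998 with its vehicle, 498 with the IL-1b vehicle and 2975 with IL-1b, below both vehicles but by less than 2-fold for the second (a log2 ratio of -0.75). The exception was the cyclooxygenase Ptgs2, 2.20-fold higher than with its own vehicle and 2.06 on the log2 scale above the IL-1b vehicle. Chemokines were lower in 5 of 13, with a median of -0.61 against the own and 1.75 against the IL-1b vehicle. Cxcl12, which draws CXCR4-bearing cells, was lower against both, at 3613 with PDGF-DD, 8798 with its vehicle, 7844 with the IL-1b vehicle and 8192 with IL-1b. Its other probe sets gave log2 ratios of -1.37 and -1.91. Cxcl13 was 4.56-fold lower. Ccl7, which draws monocytes, was 2.37-fold below its own vehicle and 4.43-fold above the IL-1b vehicle. The MHC class II genes Cd74, RT1-Da and RT1-Ba were 6.51-fold, 5.25-fold and 5.04-fold lower than with the own vehicle, and against the IL-1b vehicle their log2 ratios were -0.23, -0.16 and 0.37. The median of the RT1-Ba probe sets was 0.34 against the own vehicle, the other way.

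Sites of NF-kappaB, searched by its consensus on both strands, stood in 8 of 17 promoters of its listed subunits and targets (47.1%), 4 of 10 chemokine promoters, 5.25% of the promoters of all measured genes and 4.02% of all in the table. Those of Vcam1 and Ccl7 are shown with the site in capitals, since both genes were lower than with the own vehicle and lay on opposite sides of the IL-1b vehicle. They lie in GRCr8 at chr2:206742844-206742903 (minus strand) and chr10:67514005-67514064 (plus strand).
Vcam1: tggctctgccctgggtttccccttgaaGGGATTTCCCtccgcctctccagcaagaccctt
Ccl7: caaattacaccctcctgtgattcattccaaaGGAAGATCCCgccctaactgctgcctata

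Some cytokine genes were higher, in 4 of 19 measured, with 2 lower. Il33, an alarmin of the IL-1 family, was at 1269 with PDGF-DD, 175 with its vehicle, 740 with the IL-1b vehicle and 729 with IL-1b. The PDGF-DD vehicle array was the low one here, and the 7.23-fold ratio to it became 0.78 on the log2 scale against the IL-1b vehicle. The other probe set of Il33 gave 3.34 against the own vehicle. Il1rl1, which encodes its receptor ST2, was 3.19-fold higher by 1 probe set and gave 0.52 by the other. Tnfrsf12a, the receptor of TWEAK, was 2.52-fold higher.

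Genes of vascular tone were lower in 9 of 23 measured receptors and RGS proteins and higher in 2, with a median of -0.70. Over all measured genes 4.67% were that much lower and 4.24% higher. The list also split between the vehicle arrays, where 6 of 25 measured members were at least 2-fold higher with the PDGF-DD vehicle and 6 lower. Rgs4, which shortens signals of G protein-coupled receptors, was at 2388 with vehicle, 3421 with the IL-1b vehicle and 373 with IL-1b, and under the floor with PDGF-DD. It was at least 85.0-fold lower, and the other probe set gave a log2 ratio of -5.79. Rgs5, a marker of pericytes and arterial muscle, was 5.71-fold lower. Rgs2 was 2.07-fold higher. The natriuretic peptide receptors Npr3 and Npr1 were 7.88-fold and 5.34-fold lower. The angiotensin receptor Agtr1a was at 316 with vehicle and under the floor with PDGF-DD and with the IL-1b vehicle, so the comparison with the second vehicle gave no value. In calcium handling, phospholamban, Pln, was at least 5.27-fold lower and the calcium channel subunit Cacnb3 2.40-fold lower, while the IP3 receptor Itpr3 and the calcium pump Atp2b1 were 2.09-fold and 2.02-fold higher.

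**Figure D4:**
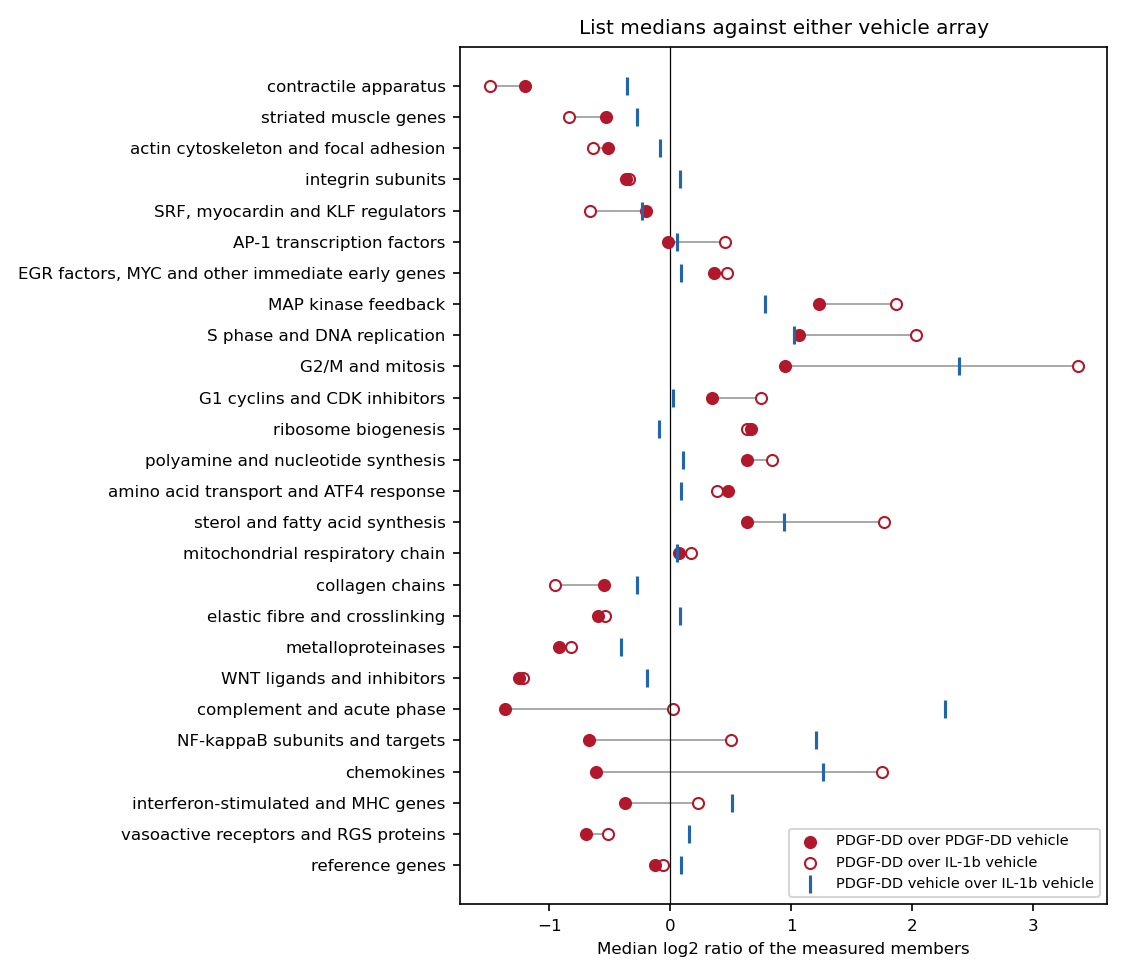
Median log2 ratio of each of 26 gene lists for PDGF-DD over its own vehicle (filled circles) and over the IL-1b vehicle (open circles), with the ratio between the vehicle arrays as a blue bar. For the contractile, ribosome biogenesis and WNT lists both circles lie on the same side of 0; for complement, NF-kappaB and chemokine genes they lie on opposite sides.

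The IL-1b pair shares no array with the PDGF-DD pair and can be set beside it. Of 9935 genes measured in both, 167 were at least 2-fold lower in both, 35.5% of the 471 lower with PDGF-DD and 31.5% of the 531 lower with IL-1b. In both pairs 78 were higher, 19.5% of 401 and 13.1% of 596. Another 89 were lower with PDGF-DD and higher with IL-1b, 18.9% of 471 and 14.9% of 596. The reverse held for 16, higher with PDGF-DD and lower with IL-1b, 3.99% of 401 and 3.01% of 531. Over all genes measured in the IL-1b pair, 11.6% were past 2-fold, 6.15% higher and 5.42% lower. Contractile genes had medians of -1.20 with PDGF-DD and -1.14 with IL-1b, S phase genes 1.06 and -0.045, ribosome biogenesis genes 0.66 and 0.18, and complement genes -1.36 and 3.13. The difference between the factors itself was not tested.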

How the data were processed

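RNA of 4 samples of cultured rat aortic smooth muscle cells was measured on Affymetrix expression arrays, 1 array per group. Per the labels' protocols, total RNA was extracted with Trizol and labelled with biotin. The authors deposited 1 intensity per probe set on a linear scale. The submitters' processing notes name MAS5 as the tool, with its version not given in the sources used here. The median intensity of every deposited column was 53.3. No detection calls were used.

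Each array was rescaled to a common mean without the lowest and highest 2% of probe sets (factors of 0.951 for PDGF-DD and 1.01 for its vehicle). The 40th percentile of the intensities of the 4 arrays together (28.1) served as a floor to which lower values were set, and ratios were taken on the log2 scale. Of the probe sets that are not controls, 20826 had 1 gene symbol in a platform annotation of 2016, 436 had several and 9780 were not listed; only the first kind names a gene. The probe set with the highest mean stood for a gene, and the others are given where they matter. Called means at least 2-fold, with no test. The steps were tested on simulated data, a copy of the PDGF-DD vehicle array with known changes in genes well above the floor. Such data hold no difference between cultures and no changes near the floor. The test therefore checks the computation only. Promoters came from RefSeq's table for GRCr8 (27457 genes, 8541 of the 10141 measured genes matched by symbol), the first entry per gene. Sites named AP-1, CRE and SRE-1 were also searched for. AP-1 stood in 1 of 15 promoters of the feedback list and in 4.21% of those of all measured genes. SRE-1 stood in 0 of 18 sterol and fatty acid promoters and in 0.68% of all measured. CRE stood in 2 of 7 promoters of AP-1 factors and in 3.15% of all measured. The array number limits precision throughout. Python 3.11.15, pandas 2.3.3, numpy 2.4.6 and matplotlib 3.10.9 were used.

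Genes were named by a rule: the 12 highest and 12 lowest ratios with both arrays above the floor, up to 6 more each way with 1 array at it (all also past 2-fold in the same direction from the IL-1b vehicle), the 5 largest ratios of each list, 12 genes of prior interest, and genes at least 4-fold from the own vehicle that turned by at least 2-fold against the other. The text gives part of what the rule yields. The samples compared, the members and the 48 lists were chosen with earlier results of these data known. Outside the rule, and chosen after their values were seen, are Adamts5, Atp2b1, Cdc45, Cdca8, Cdkn1b, Cenpa, Cnn2, Col1a1, Col3a1, Col4a1, Ereg, Etv1, Etv4, Etv5, Fosl2, Fzd2, Hbegf, Inhba, Irag1, Itga5, Itgb1, Junb, Lims1, Lmod1, Mcm5, Myc, Myl12a, Pcna, Pdgfa, Rb1, Rgs2, Rpa2, Smtn, Spry2, Spry4, Tpm4 and Vcan. Alternatives tried were the scaling, the floor, the probe set that stands for a gene and the control array.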

Additional observations from a re-analysis of the deposited data

How the results depend on the processing

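With the IL-1b vehicle array as the control, 1002 genes were at least 2-fold higher with PDGF-DD and 1074 lower, in place of 430 and 474. The median log2 ratio of G2 and mitosis genes was then 3.37, that of complement and acute phase genes 0.020 and that of chemokines 1.75, the last pair with the sign turned. Of the genes the text names, C3 (1.60), Ccl7 (2.15), Junb (1.21), Orm1 (0.020), Pdgfc (-0.35), RT1-Ba (0.37), Spry4 (at least 2.18) and Thbs2 (0.54) also turned. Cenpa (at least 0.33), Fosl2 (0.012), Itga5 (-0.70), Itgb1 (0.10), Pdgfra (0.74) and Tpm4 (0.015), not called with either control, changed sign too. Of the genes named, 132 kept their direction and their side of 2-fold. Another 7, among them Myocd and Pdgfrb, kept their direction and passed 2-fold only against that array. Ankh, Fos, Il33, Hbegf, Kitlg, Mmp16, Cdc25a, Slc7a5, Bmp6, Vcam1, Cd74, RT1-Da, Hp, Lbp and Nkd2 kept their direction and were less than 2-fold from that array, and the bound of Wnt4 was too. The cause was not tested.

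With the values as deposited, the median of all genes was 0.094, the counts were 532 higher and 420 lower (55.9% of them higher, against 47.6%), and the G2 and mitosis median was 1.04. The counts were 432 and 459 after quantile normalization, 489 and 597 with the floor at the 30th percentile, 384 and 389 with it at the 50th, and 400 and 437 with the median of a gene's probe sets. With Pdgfc set aside, the sign of the ratio past 2-fold was kept under these 5 settings for the genes named, except for RT1-Ba with the median of its probe sets (0.34). Ccne2, Bdnf, Klf5, Fos, Cdc25a, Fgfr2, Slc7a1 and Bcl2l11 (-0.15) were under 2-fold with that median, and Klf5, Etv1, Ereg, Comp and Wnt4 with the higher floor. The probe set given for Pdgfc read 64.45 with PDGF-DD, little above the higher floor of 53.5, and so was under 2-fold there too. Tgfb3 was under 2-fold with the values as deposited, and Atp2b1 and Vcan after quantile normalization. The contractile, S phase and MAP kinase feedback medians stayed past 2-fold under all 6 alternatives. No paired analysis was possible because each group is 1 array. No replicate could be left out for the same reason. Genes near the floor have only a bound.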

Other observations

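Of 10 measured osteochondrogenic genes 3 were at least 2-fold higher with PDGF-DD than with its vehicle, Enpp1, Ankh and Slc20a1, and 1 was lower, with a list median of -0.12. Enpp1, which makes pyrophosphate outside the cell, was at 336 with PDGF-DD, 97.7 with its vehicle, 127 with the IL-1b vehicle and 128 with IL-1b. Ankh, a pyrophosphate exporter, was at 357 with PDGF-DD, 120 with its vehicle, 203 with the IL-1b vehicle and 125 with IL-1b. PDGF-DD gave the highest of the 4 values for both, 3.44-fold and 2.97-fold above its own vehicle, and for Ankh the log2 ratio to the IL-1b vehicle was 0.82, less than 2-fold. The phosphate importer Slc20a1 was 2.35-fold higher, at 1900 against 808, with 1935 on the IL-1b array. Comp, a cartilage matrix protein, was the lower one, with a log2 ratio of -1.51.

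Survival and growth arrest genes were mostly within 2-fold. Bcl2l11 (BIM), which promotes apoptosis, was at 86.3 with PDGF-DD, 301 with its vehicle, 382 with the IL-1b vehicle and 348 with IL-1b, 3.48-fold lower than with its vehicle, and PDGF-DD alone was low; the median of its probe sets, however, gave a log2 ratio of -0.15. Gadd45b, a stress-induced growth arrest gene, was at 186 with PDGF-DD, 762 with its vehicle, 665 with the IL-1b vehicle and 977 with IL-1b. It too was low with PDGF-DD alone, by 4.09-fold. Of 16 survival and apoptosis genes 1 was higher and 3 lower, with a median of 0.14, and of 20 growth arrest and FOXO target genes 1 was higher and 4 lower, with a median of -0.41. Among 19 antioxidant genes 3 were higher and 2 lower, and Tfrc, the transferrin receptor, was the only 1 of 11 reference genes past 2-fold, at 605 with PDGF-DD and 266 with vehicle.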
